A study of Mus musculus with 6 samples.

Results

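The MHC class II genes encode the proteins that load peptides onto class II molecules and display them to CD4+ T cells, and Ciita encodes the coactivator that switches their promoters on. The members were given by name: H2-Aa, H2-Ab1, H2-Eb1, H2-DMa, H2-DMb1, H2-DMb2, H2-Oa, H2-Ob, Cd74 and Ciita, 10 genes in all. All 10 were found among the 19939 array features compared here, 8 of them through a row of their own. H2-DMb1 and H2-DMb2 had no single-gene row and were read from 1 row that carries both symbols, so 9 rows stand for the 10 genes and the pair cannot be told apart. The arrays came from 3 p65 wild-type and 3 p65 knockout mice, 1 mouse per array, and the series title places the deletion of p65 (RelA, which is the main activating member of the NF-κB family) in the hematopoietic compartment. The cells of all 6 mice were bone marrow cells gated as lineage-negative, Flk2-negative, Sca-1-positive and c-kit-positive, a gate that enriches for blood stem cells. The strain, sex and age of the mice and the means of deletion are not given in the sources used here. Because the sort yields a mixture, more RNA per cell and more cells of a type that carries the RNA cannot be told apart in any result below.

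A class II molecule is a pair of an alpha and a beta chain, H2-Aa with H2-Ab1 for the I-A molecule and H2-Eb1 as the beta chain of I-E. Cd74, the invariant chain, fills the groove of new molecules in the endoplasmic reticulum and guides them to endosomes. There H2-DM, built from H2-DMa and an H2-DMb chain, exchanges the remnant of Cd74 for peptide, and H2-O, built from H2-Oa and H2-Ob, restrains H2-DM. The promoters of these genes carry a conserved module in which an X box, bound by the RFX complex, stands upstream of a Y box, bound by NF-Y, and Ciita acts on the assembled proteins without binding DNA itself. B cells and dendritic cells are the cells best known for high class II expression, and interferon gamma induces Ciita in many others.

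Promoter windows from RefSeq (GRCm38.p6, 250 bases before to 50 after a start) were searched for an X box core, CNNGCAAC, and a Y box, GATTGG, because this shared module is what would lead one to look for joint movement of these genes. Of the 10 members, 7 had at least 1 window. In 4 of them, H2-Aa, H2-Eb1, H2-Oa and H2-Ob, an X core lay 30 to 40 bases upstream of a Y box, measured from first base to first base. The 2 motifs do not overlap at this spacing. Over all 32851 windows, searched on both strands, 11.2% held the X core, 16.1% the Y box and 0.064% the spaced pair. These windows include those of the members, and the pair was searched as the known class II module. The shares are therefore no test of the members. The stretches are shown 5′ to 3′ on the gene's own strand, with the X core and the Y box in capitals.

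H2-Aa (chr17:34287857-34287922, minus strand): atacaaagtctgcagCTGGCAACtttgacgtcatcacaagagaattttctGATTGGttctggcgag
H2-Eb1 (chr17:34305757-34305822, plus strand): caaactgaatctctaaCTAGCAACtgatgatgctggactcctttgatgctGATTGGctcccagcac
H2-Oa (chr17:34092285-34092350, plus strand): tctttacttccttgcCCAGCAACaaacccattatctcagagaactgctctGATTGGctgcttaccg
H2-Ob (chr17:34238797-34238862, plus strand): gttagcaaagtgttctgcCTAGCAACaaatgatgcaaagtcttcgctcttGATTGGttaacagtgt

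The spacing was 35 bases in H2-Aa and H2-Oa, 34 in H2-Eb1 and 32 in H2-Ob. H2-Eb2, a class II gene outside the members, held the spaced pair too, at 34 bases. The windows of H2-DMb1 and H2-DMb2 held the Y box (in capitals below) without an X core of these letters. They are shown because 1 array row stands for both genes, and their stretches are identical at 57 of 66 positions.

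H2-DMb1 (chr17:34153079-34153144, plus strand): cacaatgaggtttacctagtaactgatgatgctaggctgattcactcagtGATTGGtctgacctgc
H2-DMb2 (chr17:34145108-34145173, plus strand): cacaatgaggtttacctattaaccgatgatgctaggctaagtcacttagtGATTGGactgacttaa

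H2-DMa has 2 windows in the table, 1 with an X core and 1 with a Y box, and neither holds the spaced pair. H2-Ab1, Cd74 and Ciita had no window in the table. A match is a description of the letters in a window, not evidence of binding.

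The beta chain gene of I-A, H2-Ab1, rose in the knockout cells, and its partner H2-Aa had a change of similar size that did not pass the test. The remaining class II genes, the invariant chain Cd74 and the coactivator Ciita did not pass either. Of the 9 rows, 1 was higher, 0 were lower and 8 did not pass limma at an adjusted p under 0.05, against 0.687% of all features called higher and 0.13% called lower in the same fit. The median log2 fold change of the 9 rows was 0.21, that of all features -0.04. In the brightest tercile of features by mean signal, where most of the 9 rows fall, it was 0.30. Without WT replicate 1 the members' median was 0.15 and that of this tercile 0.13. In 4 of the 9 rows every knockout array lay above every wild-type array, a separation that 19.2% of all features showed, and in 0 rows did every knockout array lie below, against 15.4% of all features. Log2 fold changes are knockout over wild-type throughout, and levels are log2 array signals, which compare one gene between arrays and not one gene with another.

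**Figure D1:**
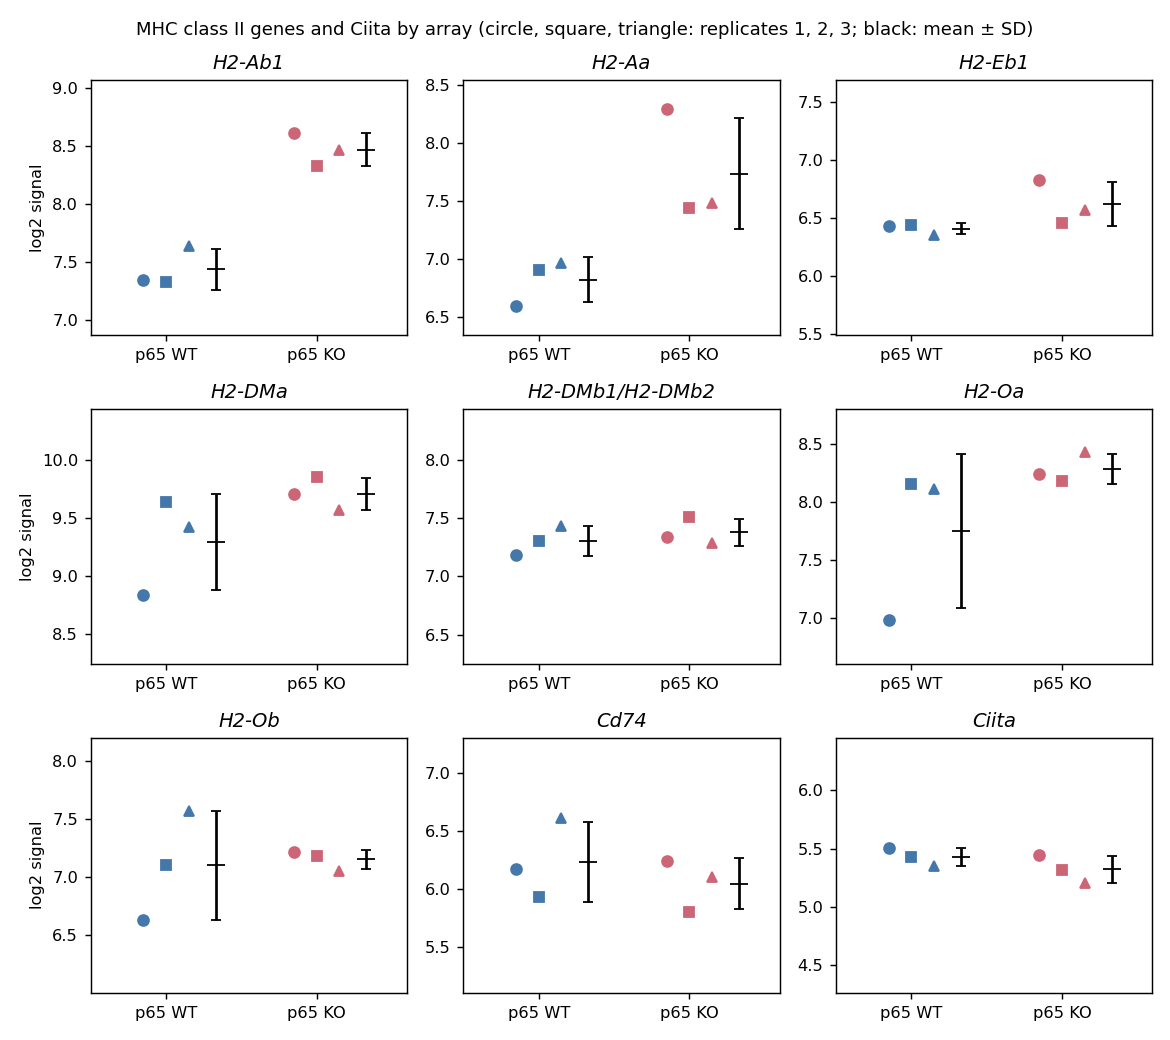
Log2 signal of the 9 rows (y axes, each spanning the same number of log2 units) in each p65 WT and p65 KO array (x axis), with the mean and SD of each group in black. H2-Ab1 and H2-Aa separate clearly between the groups, H2-Eb1 and H2-Oa by 0.02 and 0.03 only, and WT replicate 1 is the lowest array for 5 of the 9 rows.

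The H2-Ab1 signal read 7.34, 7.33 and 7.64 over the wild-type arrays, and 8.61, 8.33 and 8.47 over the knockouts. The groups did not overlap, and the gap between the lowest knockout and the highest wild-type array, 0.69, was wider than the range within either group (0.31 and 0.29). The mean went from 7.44 ± 0.17 to 8.47 ± 0.14 (SD, n = 3 each), a log2 fold change of 1.03 (SE 0.15, 95% interval 0.68 to 1.38; 2.04-fold, limma adjusted p = 0.0346). By exact permutation of the arrays p was 0.1 (two-sided), and 3 against 3 arrays cannot go lower. The p-values measure the spread between these mice. Its direction was kept in all 17 alternatives (log2 fold change 0.74 to 1.13), but the call was kept in 8 of them. It was lost on leaving out WT replicate 2 (adjusted p = 0.0687), WT replicate 3 (0.0693), KO replicate 1 (0.222), KO replicate 2 (0.159) or KO replicate 3 (0.202), and under quantile (0.0927) and cyclic loess normalization (0.072). The adjusted p was 0.116 over all rows of the table and 0.0682 without both arrays numbered 1. Over all features, 137 were called higher on the deposited values. That count was 65 or 25 without WT replicate 2 or 3, and 22, 21 or 29 without KO replicate 1, 2 or 3. It was 653 without WT replicate 1, and 77 and 154 under quantile and cyclic loess normalization. With any single array left out, the H2-Ab1 log2 fold change lay between 0.96 and 1.13.

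H2-Aa, the alpha chain that pairs with H2-Ab1, read 6.60, 6.91 and 6.97 over the wild-type arrays, against 8.29, 7.44 and 7.48 over the knockouts. Again every knockout array lay above every wild-type array, with KO replicate 1 well above the other knockouts. The means were 6.83 ± 0.20 and 7.74 ± 0.48 (SD, n = 3 each), and the log2 fold change of 0.91 (SE 0.24; 1.88-fold) did not pass over all features (limma adjusted p = 0.112). Without KO replicate 1 it was 0.64 (limma adjusted p = 0.329), and without both arrays numbered 1 it was 0.52. H2-Eb1, the beta chain of I-E, read 6.43, 6.44 and 6.36 over the wild-type arrays, against 6.83, 6.46 and 6.57 over the knockouts. Its groups were separated by 0.02, and its log2 fold change was 0.21 (SE 0.15, 95% interval -0.13 to 0.54; limma adjusted p = 0.389). Leaving out KO replicate 1 reduced that value to 0.10. KO replicate 1 was thus the highest of the 6 arrays for all 3 classical chain rows, and for 0 of the other 6 rows.

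The peptide exchange factor H2-DM did not pass in either chain. H2-DMa read 8.83, 9.63 and 9.42 over the wild-type arrays, against 9.70, 9.85 and 9.57 over the knockouts, and the groups overlapped because WT replicate 2 lay above KO replicate 3. Its log2 fold change was 0.41 (SE 0.21, limma adjusted p = 0.287), and 0.18 without WT replicate 1, the lowest array. The row shared by H2-DMb1 and H2-DMb2 ran from 7.18 to 7.44 in wild-type and from 7.29 to 7.51 in knockout. The ranges overlapped, although KO replicate 2 lay above every wild-type array, with a log2 fold change of 0.07 (95% interval -0.25 to 0.40; limma adjusted p = 0.743) whose sign turned under quantile and cyclic loess normalization.

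Neither H2-O gene passed. H2-Oa read 6.98, 8.15 and 8.11 over the wild-type arrays, against 8.24, 8.18 and 8.43 over the knockouts. WT replicate 1 alone lay more than 1 log2 unit below the rest, while WT replicates 2 and 3 were close to the knockouts. The log2 fold change of 0.53 (SE 0.30, limma adjusted p = 0.311) was 0.15 without WT replicate 1. H2-Ob read 6.63, 7.11 and 7.57 over the wild-type arrays, against 7.22, 7.19 and 7.06 over the knockouts. All 3 knockout arrays lay inside the wild-type range, and the log2 fold change of 0.05 (SE 0.23, limma adjusted p = 0.897) became -0.19 without WT replicate 1. It was negative with array weights too, as it was after quantile or cyclic loess scaling.

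Cd74 and Ciita did not pass, and both had negative values on the deposited scale. Cd74 read 6.17, 5.93 and 6.61 over the wild-type arrays, against 6.24, 5.80 and 6.11 over the knockouts, overlapping between the groups. Its log2 fold change was -0.19 (SE 0.21, 95% interval -0.66 to 0.29; limma adjusted p = 0.563), so the interval's upper bound is a 1.22-fold rise. Ciita read 5.51, 5.43 and 5.35 over the wild-type arrays, against 5.44, 5.31 and 5.21 over the knockouts, with a log2 fold change of -0.11 (SE 0.14, 95% interval -0.42 to 0.20; limma adjusted p = 0.612), an upper bound of 1.15-fold. Its sign turned under quantile and cyclic loess normalization. Signal without transcript was gauged from 1027 olfactory receptor genes, which mark olfactory neurons: their mean signals had a median of 3.88 and a 95th percentile of 5.66. All 6 Ciita values lie below that percentile, so a Ciita transcript is not shown to lie above background in either group, and a difference may not have been detectable. All 6 values of Cd74 and of the other 7 rows lie above it. The lowest of Cd74, 5.80 and 5.93, lie close to it, which limits what its fold change and interval show.

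**Figure D2:**
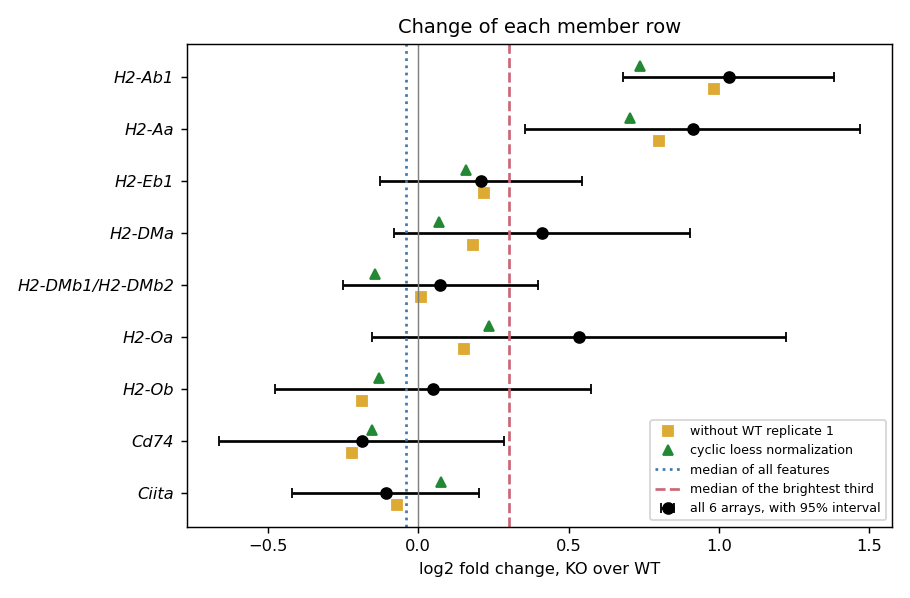
Log2 fold change of knockout over wild-type (x axis) for each of the 9 rows (y axis), as points with 95% limma intervals, with values without WT replicate 1 (squares) and after cyclic loess normalization (triangles). The interval of H2-Ab1 (0.68 to 1.38) lies above the medians of all features (-0.04) and of the brightest tercile (0.30, or 0.13 without WT replicate 1), while those of Cd74 and Ciita span 0.

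The difference between the signal of H2-Ab1 and that of each other row within an array is given as a description, since H2-Ab1 has the largest change of the 9 rows and 3 against 3 arrays cannot give an exact p under 0.1. Against H2-Eb1, the H2-DMb row, H2-Ob, Cd74 and Ciita, 5 of the 8 pairs compared, this difference was larger in every knockout than in every wild-type array. H2-Ab1 by itself separates the groups by 0.69, so many rows with little change would separate in this measure too. The share over all features was not computed, and the count is no result about these genes. For Cd74 it grew by 1.22 on the log2 scale, from 1.20 ± 0.19 to 2.42 ± 0.09 (SD, n = 3 each). The lowest Cd74 values lie close to background, which limits this size. Ciita is not shown to lie above background, so no size is given for it. H2-Aa, H2-DMa and H2-Oa overlapped in this measure, with a difference of 0.12 for H2-Aa.

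Several facts of the whole series bear on these values. Rela, the deleted gene, read 7.52, 7.89 and 7.92 over the wild-type arrays, against 7.33, 7.48 and 7.35 over the knockouts. It was lower in each knockout array but not past the threshold (limma adjusted p = 0.209, or 0.04 without WT replicate 1). Whether its probes lie within the deleted part, and how complete the deletion was in the sorted cells, was not tested. Of the sort genes, Kit ran from 10.02 to 10.63 and Cd34 from 10.68 to 11.02. Flt3, which encodes the Flk2 that the gate leaves out, read 7.31 to 8.08. The lineage markers Ms4a1, Adgre1 and Ly6g had group means between 3.11 and 4.05, below the olfactory receptor percentile of 5.66. The T cell gene Cd3e had 6.12 and 5.91 and the myeloid gene Itgam 6.74 and 6.94 (wild-type and knockout), above it. However, 9 of the 10 T and NK cell genes measured, all but Cd3e, had means over the 6 arrays below it. WT replicate 1 stood apart, with an SD over genes of 1.64 against 1.95 to 2.07 in the other arrays. Brighter genes had higher fold changes, with median log2 fold changes of -0.22, -0.09 and 0.30 in the dimmest, middle and brightest terciles of all features. Without WT replicate 1 these were -0.09, -0.08 and 0.13. H2-Ab1, H2-Aa, the H2-DM and the H2-O rows fall in the brightest tercile, and Cd74, Ciita and H2-Eb1 in the middle tercile.

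In RefSeq order along chromosome 17, the class II region runs from H2-Oa through Brd2, H2-DMa, H2-DMb2, H2-DMb1, Psmb9, Tap1, Psmb8, Tap2, H2-Ob, H2-Ab1, H2-Aa and H2-Eb1 to H2-Eb2. The neighbours H2-Ab1 and H2-Aa had the 2 highest log2 fold changes of the region, between 0.05 for H2-Ob on one side and 0.21 for H2-Eb1 on the other. The immunoproteasome genes Psmb8 and Psmb9 within the region had log2 fold changes of 0.72 and 0.51. Those of the class I loading genes Tap1 and Tap2 were 0.52 and 0.22. None of these genes passed limma (adjusted p = 0.0793 to 0.532).

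**Figure D3:**
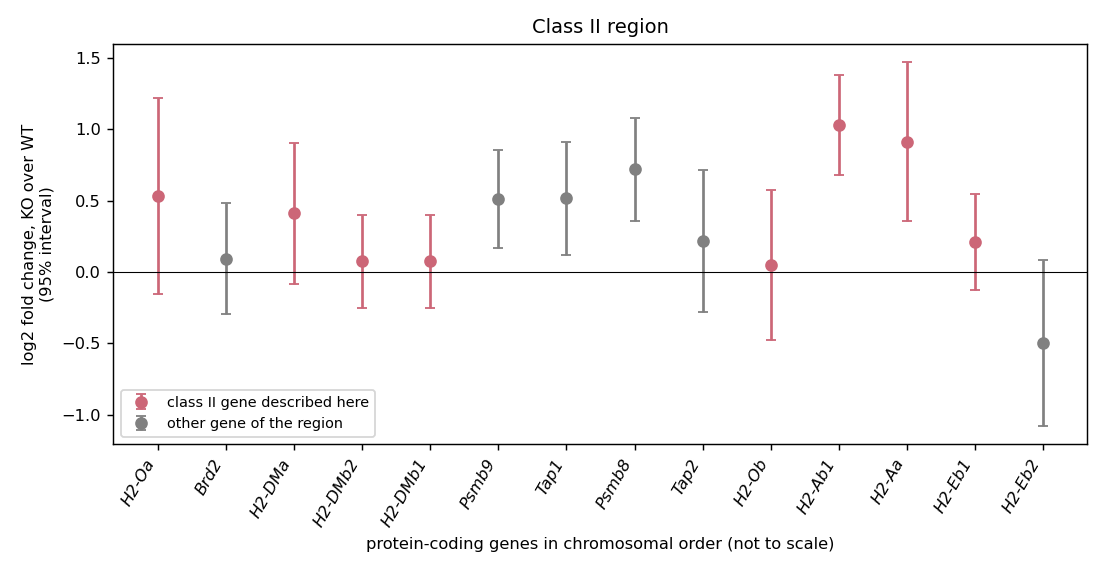
Log2 fold change with 95% limma interval (y axis) for the protein-coding genes of the class II region in chromosomal order (x axis, not to scale); H2-DMb2 and H2-DMb1 show the value of their 1 shared row. H2-Ab1 (1.03) and H2-Aa (0.91) have the highest values, next to H2-Ob (0.05) and H2-Eb1 (0.21).

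The proteins that act on class II promoters did not pass. Of 12 genes listed for RFX, CREB, NF-Y and the coactivators, 12 were measured, 0 were higher and 0 lower, and their median log2 fold change was 0.21, or 0.01 without WT replicate 1. Nfyb, a subunit of the Y box protein NF-Y, had 7.88 ± 0.49 in wild-type and 8.52 ± 0.06 in knockout (SD, n = 3 each; log2 fold change 0.64, limma adjusted p = 0.178). For Hdac2, a histone deacetylase gene, the log2 value was 0.30, and for Rfx5, the DNA-binding subunit of the X box complex, 0.29 (SE 0.27).

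Of 9 measured genes of the interferon gamma pathway, which induces Ciita, 1 rose and 0 fell. Irf8, a transcription factor gene of monocyte and dendritic cell precursors, read 6.00, 6.40 and 6.65 over the wild-type arrays, against 8.23, 8.15 and 7.66 over the knockouts. That is a 3.17-fold rise without overlap (limma adjusted p = 0.0213). Ifngr1 and Ifngr2, the receptor chains, had log2 fold changes of 0.86 and 0.98 (limma adjusted p = 0.0653 and 0.0903). Ifngr1 passed with the replicate block (0.0488) and without WT replicate 1 (0.0247). The gene of interferon gamma itself, Ifng, did not pass, and its groups overlapped (limma adjusted p = 0.313). Its means, 5.58 in wild-type and 5.26 in knockout, both lie below the olfactory receptor percentile of 5.66, so no fold is given.

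Of 12 measured genes of endosomal peptide processing, 2 rose, 0 fell and 10 did not pass, with a list median of 0.44 (0.24 without WT replicate 1). Ifi30, the lysosomal thiol reductase that opens disulfide bonds of antigens for class II loading, went from 7.04 ± 0.22 to 8.13 ± 0.17 (SD, n = 3 each; 2.12-fold, limma adjusted p = 0.0371). Ctsz, the cathepsin Z gene, went from 8.31 ± 0.09 to 9.40 ± 0.18 (2.13-fold, limma adjusted p = 0.0239). Ctss, the cathepsin that trims Cd74 in antigen-presenting cells, had a log2 fold change of 0.66 with overlapping groups (limma adjusted p = 0.208). The list of other class II and costimulation genes had 0 of 8 measured members past the test and 0 positive values, and 6 of the 8 had mean signals below the 95th percentile of the olfactory receptor genes. H2-Eb2 had a log2 fold change of -0.50 and Cd80, a costimulatory ligand gene, of -0.68 (limma adjusted p = 0.0793). Cd80 passed as lower without WT replicate 1 (0.041). Both group means of H2-Eb2 (5.24 and 4.75) and of Cd80 (5.65 and 4.97) lay below that percentile of 5.66. Their values therefore say little about a fall in transcript.

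Markers of other cells that the gate could hold are given beside the rise of H2-Ab1, and their part in it was not tested. Of 14 dendritic cell genes, 0 passed and 4 were positive, with a median of -0.24. Of them 9 had means below 5.66, among them the defining genes Itgax, Xcr1 and Clec9a. Clec10a passed with the replicate block (limma adjusted p = 0.0488), with both group means (3.95 and 4.87) below 5.66. Bst2, also an interferon-stimulated gene, had a log2 fold change of 0.95. Of 11 B cell genes, 0 passed, with a median of 0.14, and KO replicate 2, not KO replicate 1, was the highest array of the list. Means over the arrays lay below 5.66 for 6 of the 11. The B cell genes Cd79b (means 8.62 and 8.81) and Vpreb1 (7.87 and 8.01) were above background in both groups and did not pass. Neither Blnk (0.50) nor Cr2 (-0.44) passed. The wild-type mean of Blnk (5.25) and both group means of Cr2 (4.75 and 4.31) lay below 5.66. Of 10 T and NK cell genes, 0 passed and 0 were positive (median -0.33, Cd3d -0.57 and Ncr1 -0.53). Because 9 of the 10 had means over the 6 arrays below 5.66, their values say little about such cells. Without WT replicate 1 the median was -0.21 and Cd3d passed as lower (limma adjusted p = 0.0492), with both group means below 5.66.

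Some monocyte, neutrophil precursor and mast cell genes rose, and others of the same lists did not pass. Of 12 macrophage and monocyte genes, 2 rose, 0 fell and 10 did not pass, with 5 positive values and a median of -0.02. Without WT replicate 1, 4 rose and the median was 0.22. Csf1r, the receptor of macrophage colony-stimulating factor, had means of 5.38 in wild-type and 7.09 in knockout (limma adjusted p = 0.00871), and Ccr2, a monocyte chemokine receptor gene, 5.29 and 7.81 (0.0207). Both wild-type means lie below 5.66, so no fold is given. Cd68, a macrophage lysosomal protein gene, had means of 6.82 and 8.04 (limma adjusted p = 0.0622) and passed with the replicate block (0.0151). Of 12 neutrophil precursor genes, 6 rose, 0 fell and 6 did not pass, with a median of 0.74. Elane, Ctsg, Ms4a3 and Prtn3 had log2 fold changes of 2.09 to 3.98. Among the later granule genes, Lcn2 rose as well (means 5.35 and 8.06, limma adjusted p = 0.00335), with a wild-type mean below 5.66. Ltf, Camp and Ngp had log2 fold changes of -0.30, -0.01 and -0.26, but all their group means lay below 5.66. S100a9, with means of 7.32 and 6.61, had a log2 fold change of -0.71 and did not pass (limma adjusted p = 0.227). Each of its knockout values lay below each wild-type value. S100a8 (means 7.39 and 7.81) and Fcnb (5.73 and 5.67, close to 5.66) did not pass either. Of 9 mast cell and basophil genes, 3 rose (Fcer1a, Ms4a2 and Hdc), 0 fell and 6 did not pass, with a median of 1.31, and 5 rose with the replicate block. Hdc, the histamine synthesis gene, had a log2 fold change of 1.66. The wild-type means of Fcer1a (4.11) and Ms4a2 (5.59) lie below 5.66, and their knockout means were 7.16 and 7.33. Of 13 stem cell genes, 0 rose and 1 fell, Hlf, by 1.27 on the log2 scale, with a median of -0.71. With the replicate block 6, and without WT replicate 1, 10 of the 13 stem cell genes passed as lower. These lists were drawn up with results of these arrays in view and are no independent evidence of direction.

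KO replicate 1, the array highest for the classical chains, was also highest for the interferon-stimulated genes, whose part in those values was not tested. Of 25 measured, 2 rose, 0 fell and 23 did not pass, with a median of 0.64. Ifi27l2a rose 3.47-fold (limma adjusted p = 0.0431) and Gbp3 2.63-fold (0.0444). The list median relative to the average of all arrays was 1.10 in KO replicate 1, 0.10 in KO replicate 2 and -0.16 in KO replicate 3, and -0.58, -0.20 and -0.21 in the wild-type arrays. H2-Aa and H2-Ab1 were highest in KO replicate 1 and higher in all 3 knockout than in all wild-type arrays. For H2-Ab1 the log2 fold change without KO replicate 1 was 0.96 (limma adjusted p = 0.222), against 1.03 with it.

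**Figure D4:**
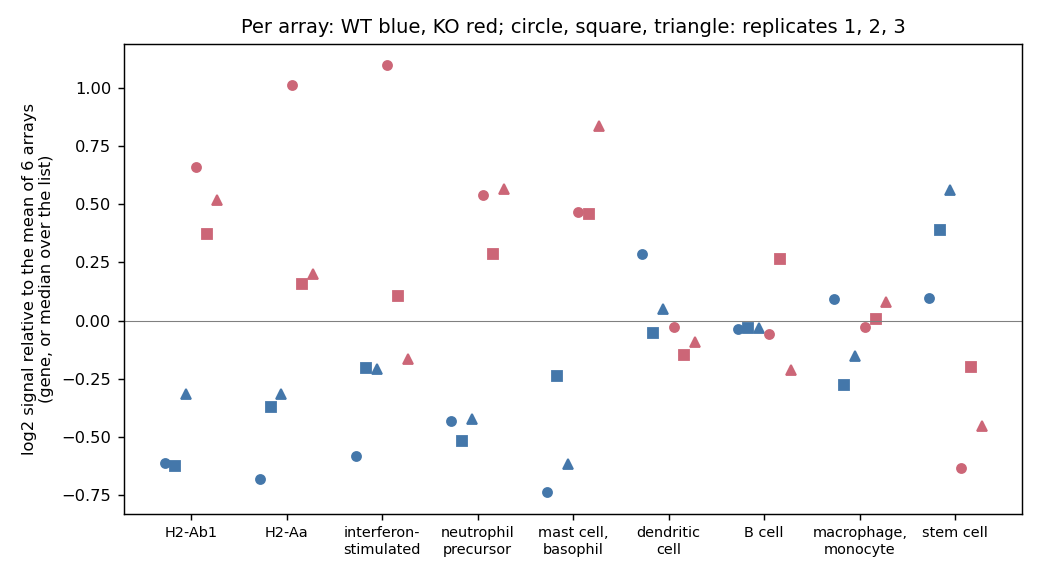
Log2 signal relative to the mean of the 6 arrays (y axis) for H2-Ab1, H2-Aa and the medians of 7 gene lists (x axis), by array. KO replicate 1 (red circle) is highest for H2-Ab1, H2-Aa and the interferon-stimulated genes (1.10), and all 3 knockout arrays lie above all wild-type arrays for both genes, for the interferon-stimulated list and for the neutrophil precursor and mast cell lists.

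Genes whose pattern over the 6 arrays lay nearest to that of H2-Ab1 were sought among non-members only, so the search says nothing about the other members. Predicted genes, olfactory and vomeronasal receptors and small RNA genes were left out too. Likeness was the root mean square difference of log2 values centred on each gene's mean. The nearest 3 were Smim26 (0.10), the mitochondrial ribosomal protein gene Mrpl51 (0.10) and the mitotic kinase gene Aurkb (0.11). The log2 fold changes of the 3 were 0.93, 1.01 and 0.90, and each passed limma (adjusted p = 0.0476, 0.0431 and 0.0346). With 6 arrays such likeness rests mainly on the size of the group difference.

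**Figure D5:**
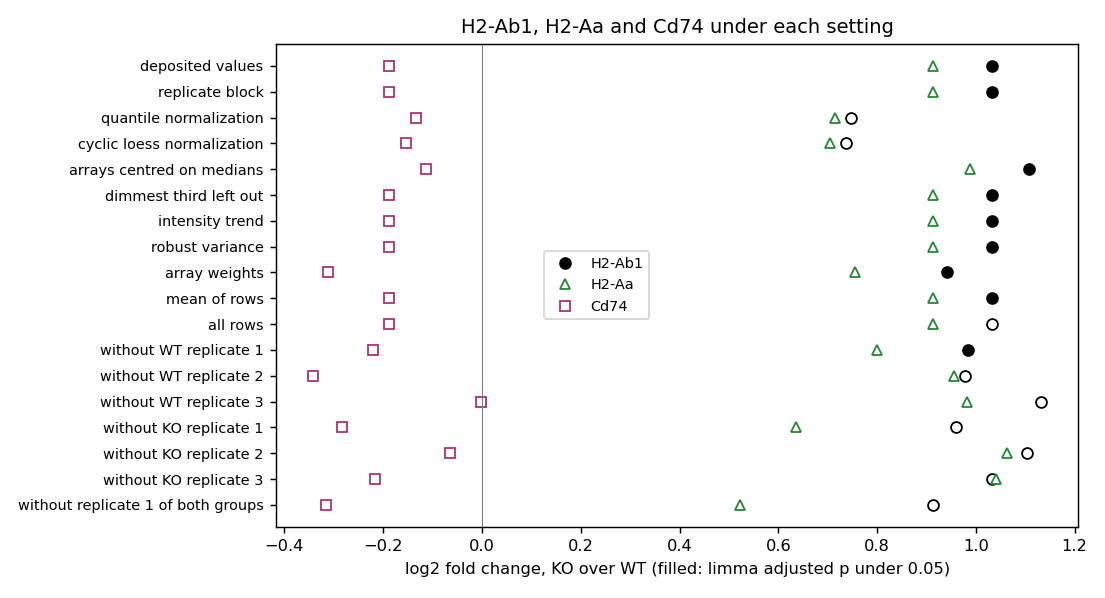
Log2 fold change (x axis) of H2-Ab1, H2-Aa and Cd74 on the deposited values and under 17 alternatives (y axis), filled where the limma adjusted p was under 0.05. H2-Ab1 runs from 0.74 to 1.13 and is filled in 8 of the 17 alternatives, H2-Aa runs from 0.52 to 1.06 and is never filled, and Cd74 stays at or below 0.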

How the data were processed

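The values are log2 signals as the authors deposited them, 35557 rows by 6 arrays, and RMA, Affymetrix Expression Console and Partek are named in the submitters' processing notes, without versions. The design text names an exon array, whereas rows were named here through annotation of the Mouse Gene 1.0 ST platform. Joint normalization of all 6 arrays is not stated, and the columns were used as given. Rows with 1 gene symbol were used (21789), the brightest row per gene was kept (19938 genes), and the row shared by H2-DMb1 and H2-DMb2 was added. No member had more than 1 row.

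Each feature was fitted on genotype alone (limma 3.58.1 under R 4.3.3, lmFit and eBayes, two-sided). Adjusted p-values are Benjamini-Hochberg over the 19939 features, with 0.05 as threshold. The script was tested on simulated data. The precision is limited by 3 arrays per group. Named genes are the 10 members, up to 4 passing genes of each list by smallest p (otherwise the first 2), genes of the regulator and interferon gamma lists, and the 3 genes nearest to H2-Ab1. Ctss, Cd68, Lcn2, Ltf, Camp, Ngp, S100a8, S100a9, Fcnb, Cd79b, Vpreb1, Itgax, Xcr1 and Clec9a were named after their values were seen. So were Rela, the sort genes and the genes of the class II region. The members and all lists were chosen with earlier results of these data known.

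Deviations of same-numbered arrays correlated at 0.368, 0.119 and 0.162 (a pairing by number needs over 0.1 in each). WT 2 with KO 3 (0.195) and WT 3 with KO 2 (0.183) correlated more than the pairs numbered 2 and 3, so the numbers separate only the first pair from the rest. The replicate block was run as an alternative. With it, 284 features were higher, against 137. Alternatives were the block, quantile, cyclic loess and median centring, leaving out the dimmest tercile, an intensity trend, robust variance, array weights, the mean of rows, all rows and leaving out each array. Leaving out both arrays numbered 1 was added after the data were seen.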

Additional observations from a re-analysis of the deposited data

How the results depend on the processing

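On the deposited values 1 member row, H2-Ab1, passed the threshold. The number was 0 under quantile and cyclic loess normalization, with all 35557 rows in the adjustment (H2-Ab1 adjusted p = 0.116, a larger family of tests) and without both arrays numbered 1 (0.0682), and ran from 0 to 1 when single arrays were left out. It stayed at 1 with the replicate block (limma adjusted p = 0.0238), which changed no call among the members, and in the other alternatives. The members' median was 0.21 on the deposited values and ran from 0.07 to 0.29. It moved by less than the SD between arrays, 0.20, in all 17. That SD is nearly as large as the median, so this comparison could hardly show a move. Signs turned in 9 cases, none of a row past the threshold. The H2-DMb1/H2-DMb2 row gave -0.15 (quantile) and -0.14 (cyclic loess), and Ciita 0.089 and 0.074. H2-Ob gave -0.11 and -0.13 in these, -0.20 with array weights, -0.19 without WT replicate 1 (up to 0.28 without WT replicate 3) and -0.22 without both arrays numbered 1. The cause was not tested. Dropping the dimmest tercile removed 0 of the 9 rows. A signal near that of olfactory receptor genes limits what can be said of Ciita and, to a lesser degree, of Cd74. The 3 arrays per group limit every row.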
